A study of Mus musculus with 16 samples.

Results

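The genes described here form a stretch of mouse chromosome 1 around Fzd7, from 58393136 to 60773359 on the build GRCm38 (2.38 Mb). Its members are the genes of the authors' annotation table that lie wholly inside these bounds and have at least 10 counts in total over 15 mammary tumors. The rule gave 38 members of the 39 genes listed there, out of 27179 genes in the whole table, of which 19431 pass the same count rule. The stretch itself was chosen by its high RNA in the tumors against a single internal reference library, so that contrast is given below as a description with no test. C2cd6, with 3 counts over the tumors, is the gene of the stretch just outside the count rule, and Flacc1, with 58, is the member nearest to it.

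RNA was sequenced from 15 tumors grown from F2 mammary tumor-derived transplants of family F, which is Trp53 null, in BALB/cJ female mice that were 8 to 10 weeks old at transplantation. Treatment began when a tumor reached 65 to 100 mm3, and tumors were taken 7 days after treatment, with 3 tumors in each of 5 groups. Sham mice received control IgG at 25 mg/kg. TGFbi mice were given 20 mg/kg of IPW-5371, which blocks TGF-beta signaling, each day. RT mice received 10 Gy of focal radiation, TGFbi+RT mice received both, and the last group, called triple here, was given 10 mg/kg of anti-PD-L1 antibody weekly on top of both (TGFbi+RT+anti-PD-L1). Agents were given 24 hours before irradiation. All tumors come from 1 transplant family, so the groups represent that family and not mammary tumors in general. The reference is 1 library with the same tissue and genotype labels, and the labels do not say how its RNA was obtained.

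The members are neighbours by position, not a pathway. Fzd7 encodes Frizzled-7, a cell surface receptor for Wnt ligands that is known in mammary and other epithelial stem and progenitor cells. Others around it work in quite different processes: Nop58 and Wdr12 in the making of ribosomes, Abi2 and Raph1 in the actin network at the cell edge, Bmpr2 in BMP signaling, Casp8 and Cflar in death receptor signaling, and Cd28 in T cell co-stimulation. RNA counts measure neither the copy number nor the chromatin of the DNA they come from.

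By the table's gene models, 30 members are protein-coding genes, 2 are small nucleolar RNAs (snoRNAs), 1 is a long noncoding RNA, 3 are pseudogenes and 2 have no symbol and are named by their Entrez numbers. How the counting treated reads that match several places is not given in the sources used here, so the pseudogenes Gm20257, Gm15464 and Gm11578, which can share reads with parent genes, are uncertain. Of the 38, 23 lie on the plus strand and 15 on the minus strand. The promoters of 4 of the 5 genes that mark the stretch are shown here because these genes lie far apart in the stretch and, with Abi2, were its 5 most abundant members by CPM; the RefSeq promoter table used here has no entry for the fifth, Abi2. Each sequence covers 250 bases before to 50 bases after a RefSeq start on GRCm38.p6, read 5′ to 3′ along the gene's strand, with GC boxes (GGGCGG, or CCGCCC on the other strand, a match for Sp family factors) in capitals.
Fzd7, chr1:59481897-59482196, plus strand: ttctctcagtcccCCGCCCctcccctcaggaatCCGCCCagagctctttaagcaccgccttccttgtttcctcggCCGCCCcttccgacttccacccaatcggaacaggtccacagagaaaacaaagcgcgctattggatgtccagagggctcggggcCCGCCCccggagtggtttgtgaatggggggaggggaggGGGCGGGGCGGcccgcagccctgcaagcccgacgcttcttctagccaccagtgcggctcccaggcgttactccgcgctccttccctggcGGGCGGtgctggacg
Nop58, chr1:59684756-59685055, plus strand: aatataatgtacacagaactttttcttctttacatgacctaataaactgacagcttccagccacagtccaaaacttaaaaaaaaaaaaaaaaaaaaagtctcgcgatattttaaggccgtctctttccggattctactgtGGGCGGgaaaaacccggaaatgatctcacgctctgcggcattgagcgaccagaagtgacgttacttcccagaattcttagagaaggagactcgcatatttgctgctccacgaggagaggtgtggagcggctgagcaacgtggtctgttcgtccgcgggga
Raph1, chr1:60566716-60567015, minus strand: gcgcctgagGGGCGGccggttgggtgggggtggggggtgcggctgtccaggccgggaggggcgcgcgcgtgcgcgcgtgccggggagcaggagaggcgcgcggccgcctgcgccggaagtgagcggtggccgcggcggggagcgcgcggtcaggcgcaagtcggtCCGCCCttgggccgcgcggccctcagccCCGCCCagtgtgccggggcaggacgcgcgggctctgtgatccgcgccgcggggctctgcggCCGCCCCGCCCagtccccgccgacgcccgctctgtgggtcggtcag
Bzw1, chr1:58392648-58392947, plus strand: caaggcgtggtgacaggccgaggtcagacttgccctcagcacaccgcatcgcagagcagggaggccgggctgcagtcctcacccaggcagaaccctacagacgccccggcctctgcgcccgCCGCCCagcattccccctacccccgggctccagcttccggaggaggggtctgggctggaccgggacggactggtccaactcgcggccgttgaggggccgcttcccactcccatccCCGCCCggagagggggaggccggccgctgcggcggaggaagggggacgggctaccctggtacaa

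The Fzd7 promoter holds 7 matches of the GC box, counting overlapping ones, Raph1 5, Bzw1 2 and Nop58 1. Their GC content differs widely, from 45.3% in Nop58 to 81.7% in Raph1, against a median of 52.7% over all 27025 promoters in the table. Taking the first entry of each gene, 26 of the 38 members had a promoter in the table. A GC box was present in 13 of the 26, against 35.9% of all promoters, and CCAAT or its reverse complement ATTGG in 9 (34.6%) against 37.9%. TATAAA or TTTATA was present in 2 (7.69%), the promoters of Cflar and Carf, against 14.2%, and CACGTG in 0 against 7.24%. These matches describe letters only.

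The snoRNAs Snord70 and Snord11 lie inside Nop58, which encodes a core protein of the very particles that box C/D snoRNAs form, and they are shown because they varied most among the members with more than a few CPM. The sequences are the GRCm38 transcripts of GENCODE, and capitals mark box C (ATGATGA or GTGATGA) and the last box D (CTGA).
Snord70, chr1:59691934-59692020, plus strand: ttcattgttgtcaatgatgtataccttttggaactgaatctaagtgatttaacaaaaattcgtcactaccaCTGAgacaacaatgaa
Snord11, chr1:59704790-59704873, plus strand: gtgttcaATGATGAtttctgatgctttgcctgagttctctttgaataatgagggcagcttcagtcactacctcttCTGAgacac

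In Snord11 box C starts at base 8 of 84 and box D at base 76. In Snord70 box D starts at base 72 of 87, and the searched box C letters are not in the sequence. The authors' table counts reads over only part of each RNA, bases 25 to 77 of Snord70 and 19 to 81 of Snord11. Both intervals lie within Nop58 on the same strand, so reads from Nop58 pre-mRNA and from the snoRNAs cannot be told apart.

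Libraries of the tumors held 11002869 to 17184023 counts, with a median of 13302488, and the reference library held 9003730. Levels are given as CPM, counts scaled to a common library total after TMM normalization over the 16 libraries. As a check of the label, Epcam and Krt5, markers of epithelial and basal cells, were at 112 to 204 and 350 to 1140 CPM in the tumors. In the reference both had 0 counts, which allows up to 0.301 CPM for each, so 2 of the 6 epithelial markers on the list had no count in a library labelled mammary carcinoma. The other 4 were detected there: Krt8 at 60.7 CPM, above its 0.327 to 34.6 CPM in the tumors, Krt14 at 60.3 CPM and Krt18 at 18.9 CPM, both within the range of the tumors, and Cdh1 at 1.81 CPM, below its 30.7 to 108 CPM in the tumors. Lyz2, a macrophage gene, and Col1a1, a fibroblast gene, were at 1471 and 1815 CPM in the reference. Both values lay within the range of the tumors, 94.9 to 2517 CPM for Lyz2 and 217 to 4400 CPM for Col1a1. Not all markers on the leukocyte and macrophage list and the fibroblast list did so. In the reference Itgam was at 150 CPM, above its 5.88 to 101 CPM in the tumors. Pdgfra was at 347 CPM against 20.5 to 126, and Dcn at 303 CPM against 1.31 to 282. The remaining markers of both lists lay within the range of the tumors. Leukocyte RNA set apart a pair of tumors, triple replicate 2 and TGFbi+RT replicate 3: Ptprc, the pan-leukocyte gene CD45, was at 381 and 283 CPM there and at 5.72 to 74.3 CPM in the other 13. The labels mark the libraries of TGFbi replicate 3 and TGFbi+RT replicate 3 as resubmitted. With both left out, 0 members were called in each comparison of treatment groups given below. The share of all genes called in that fit is not given here. With all tumors in the fit at most 1 of 16017 genes was called in a comparison, so this count says little about these libraries.

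In the tumors the stretch took 1.56% to 3.04% of all counts, against 0.192% in the reference. The median member stood 2.97 higher in the tumors on the log2 scale (mean over tumors of log2(CPM + 0.5), minus the reference), compared with 0.05 over all 19431 genes and 0.16 over the 1117 other genes of chromosome 1. At least 2-fold above the reference were 27 members of 38, where 15.8% of all genes were. At least 4-fold above were 23, where 5.03% of all genes were. In 29 members every one of the 15 tumors lay above the upper end of the reference's 95% Poisson interval, which covers counting error only. The share of all genes was not computed for this last measure. The rule used this contrast, so nothing is read from these counts, and with 1 reference library the difference has no replicate check. In bulk RNA, fewer cells of a type and less RNA per cell cannot be told apart.

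**Figure D1:**
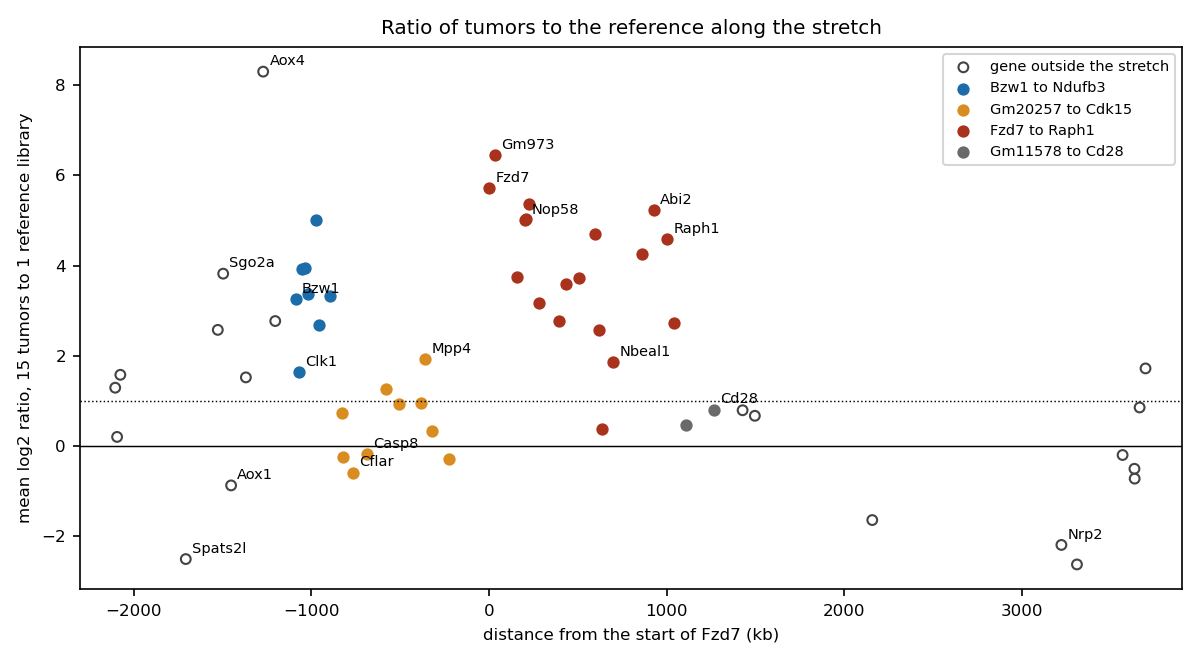
Mean log2 ratio of the 15 tumors to the reference library (y axis) for each member and for the 10 genes before and after the stretch with at least 10 tumor counts, by distance of the gene's start from that of Fzd7 in kb (x axis). Filled points are members, coloured by interval, open circles are genes outside, and the dotted line marks a 2-fold difference. Bzw1 to Ndufb3 and Fzd7 to Raph1 lie high, with medians of 3.35 and 4.01, and the genes between them lie lower, from -0.60 to 1.91 with a median of 0.53.

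The raised genes did not form 1 block. Read along the chromosome, they fell into intervals whose limits were set after the values were seen and which therefore carry no test. The first, Bzw1 to Ndufb3 (chr1:58393136-58595948), held 8 members with a median log2 ratio of 3.35, all at least 2-fold above the reference. The next, Gm20257 to Cdk15 (chr1:58652641-59352369), held 10 members with a median of 0.53 and a range of -0.60 to 1.91. Of these 10, Mpp4 and Trak2 were at least 2-fold above the reference, and in Mpp4, Trak2, Stradb and Tmem237 all 15 tumors lay above its Poisson interval. From Fzd7 to Raph1 (chr1:59482147-60566765), 18 members had a median of 4.01, and all but the pseudogene Gm15464, at 0.36, were at least 2-fold above. The last 2 members, Gm11578 and Cd28, stood at 0.46 and 0.80. All 4 members below the reference, Cflar, Cdk15, Flacc1 and Casp8, lay in the interval between the raised ones.

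The bounds of the stretch did not coincide with the limits of the raised RNA. Before Bzw1, the aldehyde oxidase genes Aox2, Aox4 and Aox3 stood 2.77, 8.31 and 1.52 above the reference on the log2 scale. Aox4 was at 194 ± 40.8 CPM (SD, n = 15) in the tumors against 1 count in the reference, whose Poisson interval is 0.00254 to 0.559 CPM. Aox1, the next of that family, was lower than the reference (-0.88), while Sgo2a, the shugoshin that guards centromeric cohesion, and Kctd18 behind it were again higher, at 3.82 and 2.57. After Cd28 came the T cell genes Ctla4 (0.79) and Icos (0.66), with 2 and 3 reference counts, and then Pard3b (-1.65) and Nrp2 (-2.20), both lower in the tumors.

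Fzd7 (Entrez 14369, a single-exon gene at chr1:59482147-59486955) was the most abundant member. It was at 7107, 7144 and 6950.3 CPM in the Sham tumors, 6034, 8862 and 6363 in the TGFbi tumors, 5404, 7095 and 7815 in the RT tumors, 5715, 7039 and 5516 in the TGFbi+RT tumors and 6071, 3639 and 7138 in the triple tumors, against 121 CPM in the reference. The 3 Sham tumors lay close together, every treated group overlapped them, and the lowest tumor was triple replicate 2. By CPM Fzd7 ranked 6 among all genes in the tumors. Per kilobase of exon, the scale on which genes can be compared, it was at 1357 CPM in the tumors and 25.1 in the reference, rank 20 and rank 2608.

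Raph1, which encodes lamellipodin, a partner of Ena/VASP proteins at the leading edge, ranked 8 by CPM. It was at 4069, 6909.7 and 4010.4 CPM in the Sham tumors, 3521, 6815 and 5809.9 in the TGFbi tumors, 3653, 4635 and 4624 in the RT tumors, 3393, 5808 and 4533 in the TGFbi+RT tumors and 4767, 2233 and 3864 in the triple tumors, against 182 in the reference. Its tumors spread more widely than those of Fzd7, and Sham replicate 2 and TGFbi replicate 2 were the highest while triple replicate 2 was the lowest. Its neighbour Abi2, a subunit of the WAVE complex that activates branched actin assembly, was at 2526, 3472 and 3297 CPM in the Sham tumors, 3475, 3409 and 2765 in the TGFbi tumors, 2586, 3287 and 3601 in the RT tumors, 2976, 3080.1 and 2042 in the TGFbi+RT tumors and 3080.2, 1778 and 3510.2 in the triple tumors, against 78.0 in the reference. The reference fold of the means was 38.4 for Abi2 and 25.2 for Raph1, and per kilobase the tumor levels of the 2 genes were alike, at 501 and 502 CPM.

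Nop58 was at 1261, 2422 and 2051 CPM in the Sham tumors, 1719, 2188 and 1712 in the TGFbi tumors, 1614, 2009.5 and 2216 in the RT tumors, 1569, 2028 and 1197 in the TGFbi+RT tumors and 2033, 1072 and 1931 in the triple tumors, against 54.0 in the reference. The lowest were triple replicate 2, TGFbi+RT replicate 3 and Sham replicate 1, and all groups overlapped. Per kilobase it was at 912 CPM, second to Fzd7 among the members. Bzw1, a regulator of translation initiation, was at 1412, 2239.9 and 2264 CPM in the Sham tumors, 2480.1, 2174 and 1992 in the TGFbi tumors, 1844, 2347 and 2435 in the RT tumors, 2169, 2109 and 1463 in the TGFbi+RT tumors and 2234, 1471 and 2216 in the triple tumors, against 213 in the reference. The same 3 tumors were the lowest. Bzw1 had the highest reference level of the 5 and the lowest ratio of them, 3.25 on the log2 scale.

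**Figure D2:**
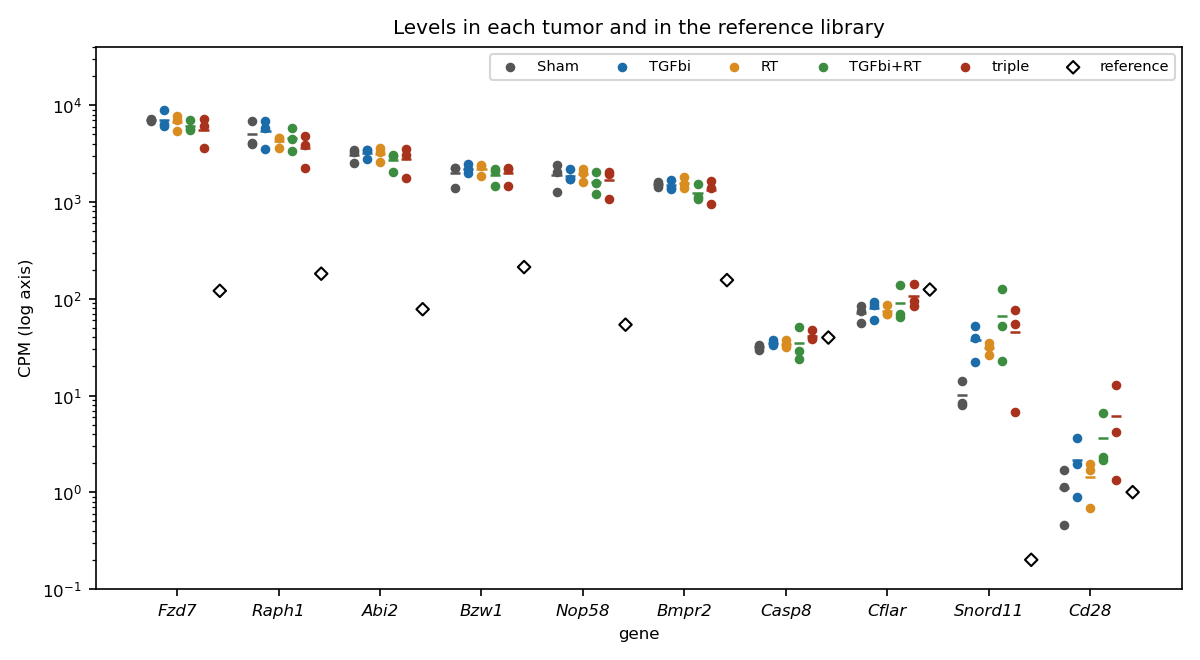
Levels in CPM (log axis) of 10 members in each tumor, by group (points, with the group mean as a bar), and in the reference library (open diamonds). For Fzd7, Raph1, Abi2, Bzw1, Nop58 and Bmpr2 every tumor lies above the reference. For Casp8 and Cflar all but 2 tumors lie below it. The Sham tumors are lowest for Snord11 except for triple replicate 2, at 6.81 CPM.

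The other members between Fzd7 and Raph1 were raised to differing degrees. Gm973, a predicted protein-coding gene next to Fzd7, had the highest ratio of all, 6.45, with 45.4 to 114 CPM in the tumors against 4 reference counts. Wdr12, a subunit of the PeBoW complex that matures the large ribosomal subunit, was at 264 to 707 CPM (median 515) against 17.5. Bmpr2, the type II BMP receptor, was at 956 to 1826 CPM (median 1420.4) against 156. Cyp20a1, an orphan cytochrome P450, and Fam117b had ratios of 4.26 and 3.58. Ica1l and Carf, a calcium-responsive transcription factor, stood at 3.72 and 2.56, and Nbeal1, at 1.86, was the least raised protein-coding gene of this interval.

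Between Bzw1 and Ndufb3, Orc2, a subunit of the origin recognition complex that marks where DNA replication starts, was at 290.3 to 640 CPM (median 531) against 45.6 in the reference. Ppil3, a peptidylprolyl isomerase, and Nif3l1 had ratios of 3.92 and 3.96, Fam126b of 2.68, and Ndufb3, a subunit of respiratory complex I, of 3.32. Clk1, a kinase of SR splicing factors that lies between Bzw1 and Ppil3, was raised least, at 1.63. The long noncoding RNA Gm15834 had 9 reference counts and a ratio of 5.01. In the authors' annotation table it starts 229 bases from Orc2 on the other strand.

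In the interval with the lower ratios, Cflar, the caspase-8-like inhibitor c-FLIP, was at 84.1, 56.2 and 75.2 CPM in the Sham tumors, 60.8, 93.1 and 85.6 in the TGFbi tumors, 87, 69.6 and 69.7 in the RT tumors, 64.9, 69.4 and 138 in the TGFbi+RT tumors and 83.5, 141 and 94.9 in the triple tumors, against 125 in the reference. TGFbi+RT replicate 3 and triple replicate 2 were the highest, and no other tumor exceeded the reference. Casp8, the initiator caspase of death receptors, was at 31.4, 29.9 and 33.5 CPM in the Sham tumors, 37.2, 33.2 and 35.2 in the TGFbi tumors, 37.9, 32 and 33.5 in the RT tumors, 24, 28.8 and 51.6 in the TGFbi+RT tumors and 38, 47.1 and 39 in the triple tumors, against 39.8 in the reference. The same pair was the highest, and these are the tumors with the most Ptprc RNA; the part of leukocytes in these levels was not tested. Trak2, a mitochondrial transport adaptor, stood 1.27 above the reference and shares a start region with Stradb, the LKB1 partner pseudokinase, at 0.92. Tmem237, a protein of the ciliary transition zone, was at 0.95. Mpp4, a scaffold protein best known from photoreceptors, was at 1.91 but rests on 8 reference counts and overlaps a neighbouring gene, so reads cannot be told apart there. Flacc1 and Cdk15 had 4 and 5 reference counts and at most 0.774 CPM in a tumor.

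The partners of these proteins that are encoded elsewhere were counted against the same reference, from lists drawn up for this purpose. Of 14 Frizzled receptors, co-receptors and Dishevelled genes, 3 were at least 2-fold higher in the tumors and 3 at least 2-fold lower, with a median log2 ratio of 0.08. Per kilobase Fzd6 was the next most abundant Frizzled after Fzd7, at 25.4 CPM in the tumors and 24.5 in the reference. Lrp5, the Wnt co-receptor, stood at 335 ± 70.6 CPM (SD, n = 15) against 72.7. Of 8 box C/D and PeBoW partners, 6 were at least 2-fold higher and 0 at least 2-fold lower, with a median of 1.33; Nop56, which joins Nop58 in the same particle, was at 189 against 47.4 CPM and Ncl, nucleolin, at 1341 against 234. Of 12 WAVE and Ena/VASP genes 1 was at least 2-fold higher and 1 at least 2-fold lower (median -0.13). Of 10 BMP receptor and Smad genes 3 were higher and 3 lower by that measure (median -0.08), of 8 origin recognition and licensing genes 1 and 0 (median 0.65), and of 11 death receptor genes 1 and 2 (median -0.47). The death receptor gene that was higher was Bid, the Casp8 substrate, at 54.0 against 6.73 CPM. Over all genes the median was 0.05 and 15.8% were at least 2-fold higher.

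Across the treatment groups, which the rule did not use, no member passed the threshold. All 15 tumors were fitted together with edgeR's quasi-likelihood test and Benjamini-Hochberg adjustment over 16017 genes at 0.05. Of the 38 members, 36 passed the low-count filter; Flacc1 and Cdk15 did not. In TGFbi against Sham 0 of 36 members were called, where 0.00624% of all genes were (1 gene). In RT, TGFbi+RT and triple against Sham, in TGFbi+RT against RT or TGFbi, in triple against TGFbi+RT, in the interaction of radiation and inhibitor and in the test of any difference among the 5 groups, 0 of 36 were called, against a background of 0% in each. At an unadjusted p under 0.05, the members numbered 2, 2, 2 and 2 in the 4 comparisons with Sham, in the order TGFbi, RT, TGFbi+RT and triple, 1 in TGFbi+RT against RT, 2 in the test of any difference and 0 in the others. For the 4 comparisons with Sham, 2 of 36 is 5.56%, where 8.48%, 4.2%, 15% and 14.9% of all genes were under that p. For TGFbi+RT against RT, 1 of 36 is 2.78%, against 9.62% of all genes, and for any difference 2 of 36 is 5.56%, against 10.8%. Where no member was under it, the share of all genes was 6.06% in TGFbi+RT against TGFbi, 1.99% in triple against TGFbi+RT and 3.8% in the interaction. DESeq2 called more genes: 0.863% in TGFbi, 0.00627% in RT, 3.18% in TGFbi+RT and 3.88% in triple tumors against Sham, with 0, 0, 1 and 1 of the members. It called 0 members in TGFbi+RT against RT (0.395% of all genes), TGFbi+RT against TGFbi (0.0188%), triple against TGFbi+RT (0.00627%), the interaction (0.0188%) and the test of any difference (4.11%). The comparisons with Sham share its 3 tumors. All RT tumors carry the library code A2304 and all Sham, TGFbi and TGFbi+RT tumors A2301. Within these groups radiation alone and library code therefore cannot be told apart. In TGFbi+RT against RT the added inhibitor and the library code cannot be told apart either, and the interaction includes the RT tumors. Only triple tumors carry both codes within 1 group, so a fit that includes the library code draws its estimate from those 3. Those with A2304 include triple replicate 2, the tumor with the most Ptprc RNA. That fit gave a median of 0.14 in RT against Sham and called 0 members, and its share of all genes called is not given here.

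**Figure D3:**
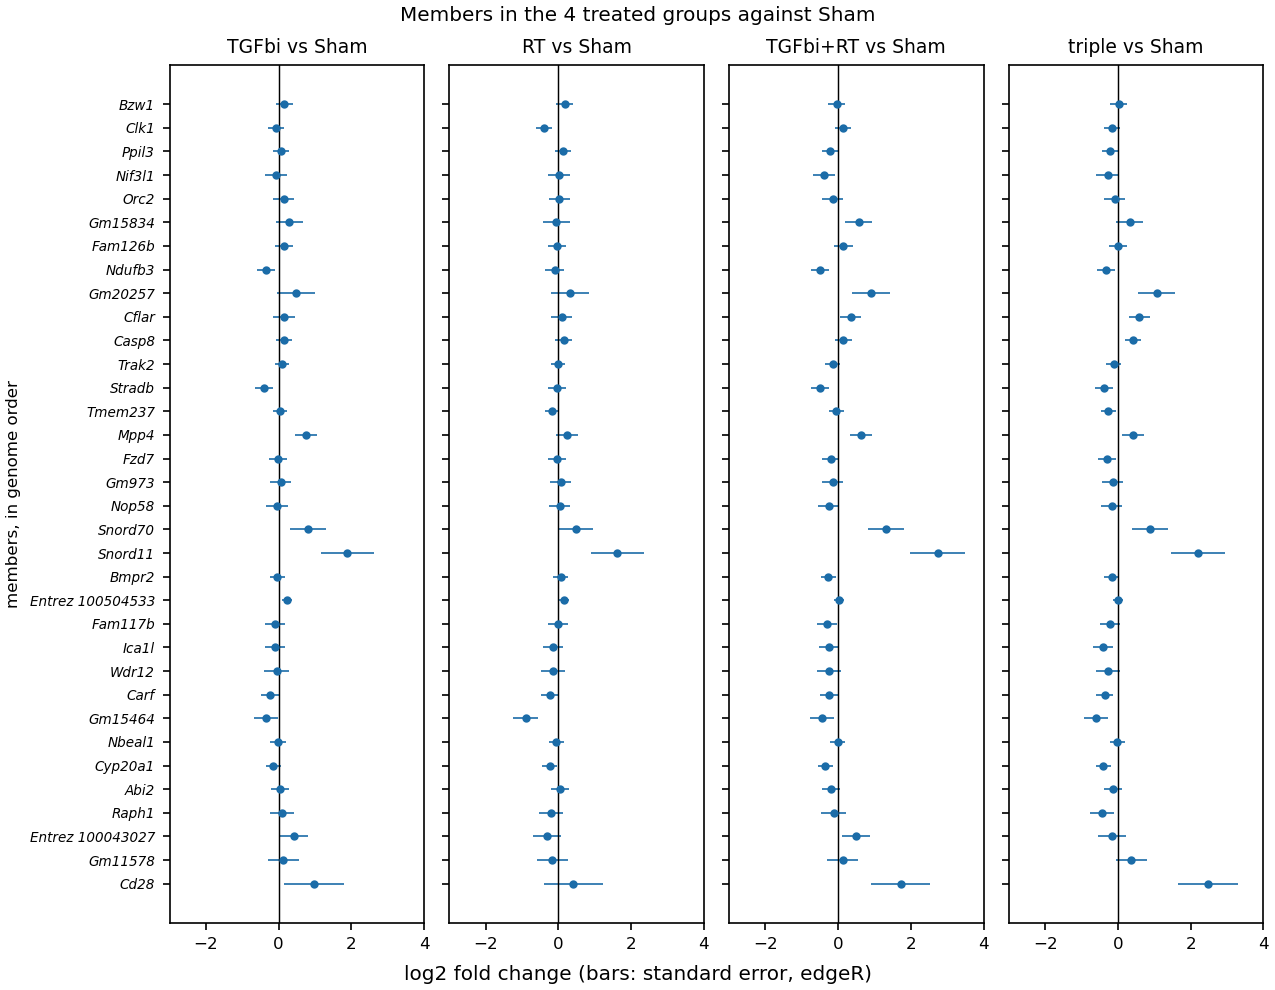
Log2 fold change with its standard error (x axis, edgeR) of 34 of the 36 tested members, in genome order (y axis), in the 4 treated groups against Sham. The points scatter about 0, with medians over all 36 of 0.06, -0.0046, -0.14 and -0.14. Snord11 lies to the right in each panel, at 1.89, 1.62, 2.73 and 2.20, and passed the threshold in none. In triple against Sham Cd28 lies farther to the right, at 2.47, and did not pass it either.

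The members' medians lay near 0. The median log2 fold change of the 36 was 0.06 in TGFbi, -0.0046 in RT, -0.14 in TGFbi+RT and -0.14 in triple tumors against Sham, beside -0.01, 0.01, -0.01 and -0.0043 for all genes. It was -0.06 in TGFbi+RT against RT, -0.15 in TGFbi+RT against TGFbi and 0.02 in triple against TGFbi+RT, beside 0.0020, 0.03 and 0.03 for all genes. For Fzd7 the difference from Sham was -0.01 ± 0.25 (standard error), -0.05 ± 0.25, -0.21 ± 0.25 and -0.31 ± 0.25 in TGFbi, RT, TGFbi+RT and triple tumors, with an adjusted p of 0.86 for any difference among groups. The corresponding adjusted p was 0.828 for Raph1, 0.932 for Abi2, 0.936 for Bzw1 and 0.933 for Nop58. The largest mean difference among these 4 genes and Fzd7 was that of Raph1 in triple against Sham, -0.45 ± 0.33 with an adjusted p of 0.544.

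Snord11 came nearest to the threshold. It was at 7.97, 8.33 and 14.2 CPM in the Sham tumors, 22.1, 52.2 and 39.3 in the TGFbi tumors, 26.4, 31.7 and 35 in the RT tumors, 126, 22.9 and 52.5 in the TGFbi+RT tumors and 76.6, 6.81 and 54.3 in the triple tumors, with 2 counts in the reference, or 0.201 CPM. No Sham tumor overlapped the TGFbi, RT or TGFbi+RT tumors, but triple replicate 2 was below all of Sham. Of the 36 tested members, 3 in TGFbi, 1 in RT and 4 in TGFbi+RT tumors were higher than Sham without overlap, Snord11 included. Lower without overlap were 0, 2 and 0. The share of all genes that separate in this way was not computed, so nothing is read from it. Against Sham the log2 fold change was 2.73 ± 0.75 in TGFbi+RT (adjusted p = 0.207) and 2.20 ± 0.74 in triple tumors (adjusted p = 0.226). DESeq2 called it in both comparisons, at 2.74 with an adjusted p of 0.00721 and at 2.20 with 0.0368. In both, 1 of 36 members (2.78%) is near the 3.18% and 3.88% of all genes that DESeq2 called. These were the only calls of a member under any setting tried. Snord70 was at 9.91, 17.6 and 23.5 CPM in the Sham tumors, 19.5, 41.7 and 28.8 in the TGFbi tumors, 20, 23.5 and 26.9 in the RT tumors, 60.4, 34.5 and 30.8 in the TGFbi+RT tumors and 47.8, 10.1 and 34.7 in the triple tumors. Its tumors followed those of Snord11 closely (Pearson r = 0.92 over 15 tumors), with a difference from Sham of 1.31 ± 0.50 in TGFbi+RT (adjusted p = 0.256). The host gene Nop58 did not follow them in the same degree (r = 0.21 with Snord11 and 0.45 with Snord70). Summed over 121 other snoRNAs of the table, the tumors held 173 CPM in Sham replicate 1 to 693 CPM in TGFbi replicate 3, a resubmitted library, with 386 in TGFbi+RT replicate 1, the tumor with the most Snord11; the part of small RNA recovery in the result was not tested.

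Cd28, the T cell co-stimulatory receptor, was the other member with an unadjusted p under 0.05 for any difference (adjusted p = 0.449). In the edgeR fit Cd28 stood 2.47 ± 0.82 above Sham on the log2 scale in triple tumors (adjusted p = 0.225), farther than Snord11. It was at 1.7, 1.14 and 0.46 CPM in the Sham tumors, 0.898, 1.95 and 3.68 in the TGFbi tumors, 1.98, 0.683 and 1.7 in the RT tumors, 2.3, 2.15 and 6.54 in the TGFbi+RT tumors and 4.17, 12.7 and 1.35 in the triple tumors. The highest were triple replicate 2, TGFbi+RT replicate 3 and triple replicate 1, which also held the most RNA of 6 T cell markers in sum, 101, 30.2 and 43.2 CPM against at most 10.8 in the other 12 tumors. The part of T cell number in the level of Cd28 was not tested.

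The partner lists gave no call either: 0 of the 14 Frizzled, 11 death receptor, 8 box C/D and PeBoW, 12 WAVE and Ena/VASP, 10 BMP receptor and 8 origin recognition genes passed the threshold in any of the comparisons. Over all genes at most 1 of 16017 was called in a comparison, so nothing about the lists is read from this. For the Frizzled list the median log2 fold change from Sham was -0.16 in TGFbi, 0.04 in RT, -0.21 in TGFbi+RT and -0.23 in triple tumors. Among all lists the lowest median against Sham was -0.33, for the BMP receptor list in TGFbi tumors. The highest was 0.25, for the death receptor list in triple tumors.

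Between tumors, regardless of group, many of the raised members varied together. A tumor's score, the average deviation of its 36 tested members from their means over the tumors in log2 CPM, ran from -0.38 in triple replicate 2 and -0.32 in Sham replicate 1 to 0.28 in TGFbi replicate 2, with a pooled SD within groups of 0.215. Group means of the score were -0.06 ± 0.23 in Sham, 0.08 ± 0.20 in TGFbi, -0.02 ± 0.15 in RT, 0.03 ± 0.16 in TGFbi+RT and -0.03 ± 0.31 in triple tumors (SD, n = 3 each), all within 1 SD of each other. For Fzd7 to Raph1 alone, triple replicate 2 stood at -0.73, followed by Sham replicate 1 at -0.27 and RT replicate 1 at -0.22. For Bzw1 to Ndufb3 the lowest were again triple replicate 2 (-0.56) and Sham replicate 1 (-0.44), then TGFbi+RT replicate 3 (-0.34).

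**Figure D4:**
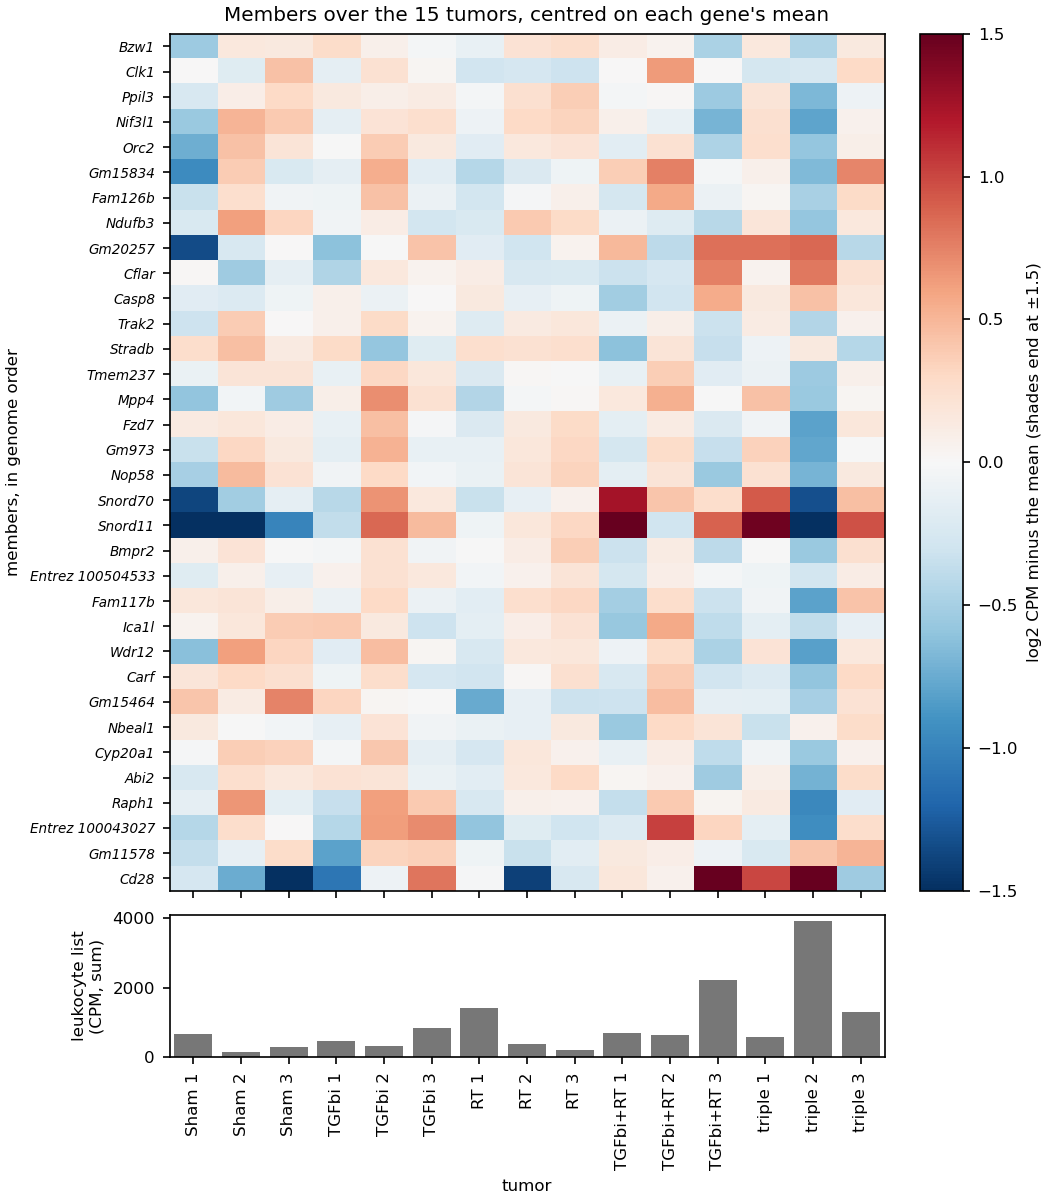
Log2 CPM of 34 of the 36 tested members (rows, in genome order) in each tumor (columns) as the deviation from the gene's mean, with red above and blue below it, and under it the summed CPM of 6 leukocyte and macrophage markers. Triple replicate 2, with 3916 CPM of these markers, is blue for most raised members and red for Cflar, Casp8 and Cd28.

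Markers of other cell types were high in some of the tumors with low scores, but their relation to the scores was not computed. The summed CPM of 6 leukocyte and macrophage markers was 3916 in triple replicate 2 and 2237 in TGFbi+RT replicate 3, against 163 to 1432 in the other 13 tumors. TGFbi+RT replicate 3 had a score of -0.07 over all tested members. The summed CPM of 6 fibroblast markers was highest in Sham replicate 1 (6520), triple replicate 2 (6499), RT replicate 1 (6249.9) and triple replicate 3 (5702). Of these the first 3 also had the lowest scores for Fzd7 to Raph1, while triple replicate 3 had a score of 0.22. The fibroblast sum was 339 to 3189 CPM in the other 11. The part of these cells in the scores was not tested.

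Over the 15 tumors the median Pearson r of log2 CPM was 0.55 among the 28 pairs within Bzw1 to Ndufb3, 0.57 among the 153 pairs within Fzd7 to Raph1, and 0.54 among the 144 pairs with 1 gene in each. Within Gm20257 to Cdk15, which lies between them, it was 0.01 over 28 pairs. Single genes of that interval nevertheless followed the raised ones: Trak2 had r = 0.95 with both Nop58 and Orc2 (0.91 and 0.92 in the 13 tumors other than triple replicate 2 and TGFbi+RT replicate 3), and Tmem237 had 0.84 with Fzd7 (0.66 in 13). Over 421003 other pairs of genes on 1 chromosome, with starts no farther apart than the length of the stretch, the median r was 0.11. These pairs were not matched to the members by level. A mean of 10 CPM or more was reached by 31 of the 36 tested members and by 9649 of the 16017 genes tested. All pairs share the same libraries and their scaling, and these values are descriptions. With the leukocyte-rich triple replicate 2 and TGFbi+RT replicate 3 left out, an omission chosen after seeing the data, the first 3 medians were 0.53, 0.46 and 0.37.

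**Figure D5:**
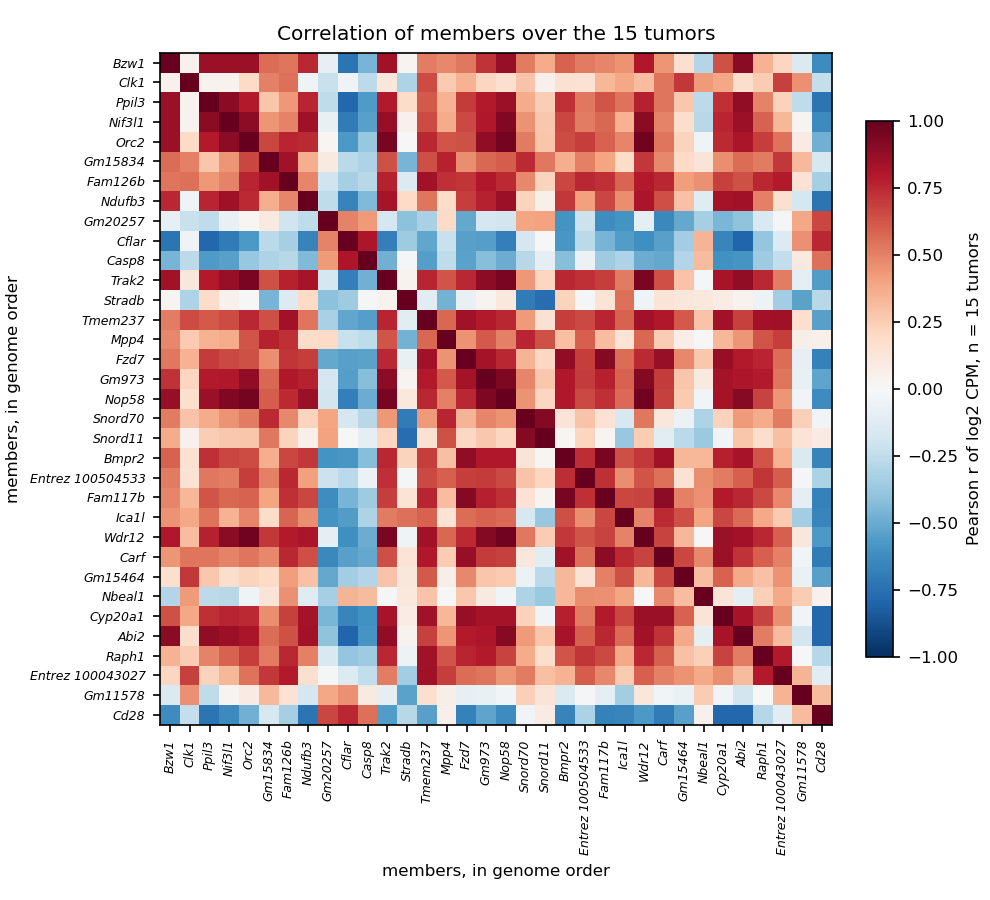
Pearson r of log2 CPM over the 15 tumors for each pair of 34 of the 36 tested members, in genome order on both axes, red for positive and blue for negative. Most raised members correlate with each other, with medians over all tested members of 0.55 and 0.57 within their intervals. Cflar, Casp8 and Cd28 run against many of them over these 15 tumors. Without triple replicate 2 and TGFbi+RT replicate 3, r with Nop58 went from -0.68 to -0.22 for Cflar. It went from -0.49 to 0.10 for Casp8 and from -0.63 to -0.18 for Cd28.

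The genes most like Fzd7 among the members, by Pearson r of log2 CPM over the 15 tumors, were Fam117b (0.91, and 0.83 in 13 tumors), Bmpr2 (0.89, and 0.79 in 13), Carf (0.87) and Cyp20a1 (0.87), all on the same side of it. Outside the stretch they were Jmjd6 (0.95), Alkbh5 (0.92), Cdkal1 (0.92), Pbrm1 (0.89) and Kat7 (0.89), none of them on chromosome 1. The latter are the highest among the other genes with a symbol of the 16017 tested, a far larger pool than the 36 tested members. Their r over 13 tumors was not computed. Nop58 was most closely matched by Wdr12 (r = 0.96, and 0.95 in 13 tumors) and by Orc2 (0.95, and 0.94 in 13 tumors), which lies in the other raised interval, with Trak2 next (0.95, and 0.91 in 13 tumors). Cflar ran against Nop58 over 15 tumors (r = -0.68), but at -0.22 in the 13 tumors with little Ptprc the relation rests on the 2 that were left out. Cflar and Casp8 varied together, with r = 0.81 over 15 and 0.53 over 13 tumors.

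Genes that start back to back did not all move alike. Distances here follow the starts in the authors' annotation table. Ppil3 and Nif3l1, on opposite strands with starts 2148 bases apart, had r = 0.90. Wdr12 and Carf, which overlap at their starts in that table, had 0.68. Orc2 and Gm15834 had 0.67, Fam126b and Ndufb3, 266 bases apart, 0.49, and Trak2 and Stradb, 89 bases apart, 0.04. The RefSeq starts used for the promoters differ. There Nif3l1 starts inside Ppil3, and Carf starts beyond the end of Wdr12, so which pairs overlap depends on the gene model. The strand setting of the counting is not given in the sources used here, so reads of overlapping genes cannot be told apart.

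The median SD of log2 CPM was 0.336 over the 36 tested members and 0.354 over all 16017 genes tested. Among genes with a mean of 10 CPM or more it was 0.299 over 31 members and 0.266 over 9649 genes. Among the members that varied least were Entrez 100504533 and Trak2, at 0.16 and 0.23, and Snord11, Cd28 and Snord70 varied most, at 1.23, 1.15 and 0.73. Fzd7, at 0.29, and Abi2, at 0.30, varied less than Raph1, at 0.42.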

How the data were processed

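The counts were deposited by the authors as whole read fragments per Entrez gene and library, with no normalization, and the other values used are exon coordinates and summed exon length in the deposited annotation table. The build is GRCm38, per the submitters' processing notes; the aligner settings, strand and annotation release are not given in the sources used here. Symbols matched 25275 of the 27179 identifiers.

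The rule for members and all lists were chosen with earlier results of these data known. Members named are the 5 markers, the protein-coding members by role, and the extremes of ratio and spread; 2 members enter the counts and medians but their own values are not reported here. Ratios to the reference use log2(CPM + 0.5) with TMM over 16 libraries. Treatment groups were compared in 15 tumors with edgeR 4.0.16 in R 4.3.3 (filterByExpr, TMM, quasi-likelihood F test, 1 mean per group, 10 residual degrees of freedom, Benjamini-Hochberg over 16017 genes, threshold 0.05); the pipeline was tested on simulated counts. Alternatives were DESeq2 1.42.0, limma 3.58.1 (voom), total count scaling, no filter, other pseudocounts, the 2 groups alone, the library code (A2301 or A2304), the replicate block and leaving tumors out. No 2 tumors of a group agreed within sampling noise (chi-square per gene 14.0 to 129). The labels number the tumors of a group but do not state that each came from a separate mouse, so p-values measure only the spread between these samples of 1 tumor family, which may be technical. Depth was 11002869 to 17184023 counts per tumor; Poisson intervals cover counting error only.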

Additional observations from a re-analysis of the deposited data

How the results depend on the processing

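No member was called under up to 24 alternatives to each comparison's fit, with 1 exception: DESeq2 called 1 member, Snord11, in TGFbi+RT against Sham and 1, again Snord11, in triple against Sham. Over all genes edgeR called 1 in TGFbi, 0 in RT, 0 in TGFbi+RT and 0 in triple tumors against Sham, and DESeq2 127, 1, 488 and 619. The shares of all genes called under the other alternatives are not given here. The medians of the members in the comparisons moved by less than the pooled SD of the stretch score (0.215) under all but 1 of 191 alternative fits; with the library code as a term, the median interaction of radiation and inhibitor was -0.35 in place of -0.05. The median log2 ratio to the reference was 2.78 to 3.25 under 24 alternatives, at 3.21 over the 36 members that pass the low-count filter and 3.25 over the 25 with at least 20 reference counts, where fewer members enter. It was 2.95 to 3.00 leaving out 1 tumor at a time, and 3.02 without TGFbi+RT replicate 3 and triple replicate 2, which was chosen after seeing the data. Scaling by total counts shifts every log2 ratio by -0.16. Members at least 2-fold above the reference numbered 27 to 29, or 20 of 25 with at least 20 reference counts. With the replicate block, 0 members were called in each comparison, and the median difference of TGFbi+RT from Sham was -0.12. Deviations from the group means over all tested genes were correlated between tumors with the same number. There r was -0.58 to 0.67 over 30 pairs, with a median of -0.05, beside a median of -0.0048 for tumors of different groups and numbers. These values do not settle whether the numbers pair the tumors. Members with few reference counts, among them Gm973, Snord70 and Snord11, have wide intervals on their ratio.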
